A study of Rattus norvegicus with 11 samples.

Results

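Cyclic AMP signalling genes were examined in the medial prefrontal cortex (mPFC) of 11 rats, 6 that had self-administered heroin (heroin rats) and 5 yoked controls (saline rats). The genes were taken by their names, and the set was chosen with earlier results of these data known. They are the adenylyl cyclases (Adcy), the stimulatory and inhibitory G protein alpha subunits Gnas, Gnal and Gnai, the catalytic and regulatory subunits of protein kinase A (Prkac, Prkar) and the phosphodiesterases (Pde). Of the 41012 different non-control probes on the array, 59 carried such a name, and they stood for 44 genes of 35561 different names, some of which are accessions. All rats were males of 4 months, and no strain is given in the sources used here. The heroin rats had taken heroin themselves, while each yoked rat had received saline infusions timed by another rat. Both groups then went through 14 days of abstinence and an extinction session without drug, and both were sedated with Propofol before the brain was removed. RNA of a cortical block medial to the forceps minor was hybridised to single-colour Agilent arrays, 1 array per rat. Such a block holds many cell types, and fewer cells of a type and less RNA per cell cannot be told apart.

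Cyclic AMP is made from ATP by adenylyl cyclases, which the alpha subunits Gs and Golf stimulate and the Gi subunits inhibit. It binds the regulatory subunits of protein kinase A, which then release active catalytic subunits, and it is broken down by phosphodiesterases. Opioid receptors signal through inhibitory G proteins, so that opioids acutely lower cyclic AMP, and an increase of the pathway during long opioid exposure is a textbook observation in several brain regions.

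The results turned on a few probes of 60 nucleotides, of which the leading 30 bases are shown to identify the measured transcript. Those of the inhibitory G protein subunits share runs of at most 6 bases.
Gnai1: taaacgttgcacagactattttagtaccat
Gnai2: ctgcaaatctagaaaactttttagagaaac
Gnai3: gtggaatatgttttcataatttttctatac
Pde6h: cagacgcgacagttcaagagcaagcctccc
Prkar2a: cctgcatggacatcatgaagaggaacatct
In the rat genome build rn3 the array files place the Gnai1 probe at chr4:12494429-12494970, the Gnai2 probe at chr8:112881777-112881836 and the Gnai3 probe at chr2:203631029-203631088. The Pde6h probe lies at chr4:174255071-174257529 and the Prkar2a probe at chr8:113824608-113824667. The Gnai1 and Pde6h probes cover 542 and 2459 bases of genome, so that their 60 nucleotides are spread over a longer stretch. Exon and untranslated region were not analysed here. For 5 of the 56 member probes with a position and a RefSeq chromosome the files and RefSeq named different chromosomes, these being the probe of Adcy2 and both tested probes each of Prkar1a and Pde4d, so the identity of these probes is uncertain.

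Levels are given in array medians, that is, as signal intensity divided by the median signal of the same array, and are compared between rats but not between probes. A difference is the heroin mean minus the saline mean of log2 levels. A probe was tested where the scanner software scored it well above background on all 11 arrays, which held for 45 probes and 36 genes of the members. The brightest tested probe stands for its gene. Precision is limited by the number of arrays. Array medians ranged from 42.7 to 78.3 in heroin rats and from 58.0 to 83.2 in saline rats.

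Signals over the whole array moved with the groups. Over all 25555 tested probes the median difference was 0.18 and 78.7% of probes were higher in heroin rats, against 0.01 after quantile normalization, which gives every array the same distribution of values. The shift was absent among dim probes and about 0.25 among bright ones. Saline replicate 5 stood apart from the other saline rats, since it was the highest of the 5 for 49.9% of all tested probes and for 18 of the 36 member genes. Slides were told apart by scan time, and in every shared slide the heroin rat lay at array position 4 and the saline rat at position 3. Position and group therefore cannot be told apart. The markers of excitatory neurons Slc17a7 and Camk2a were detected in all 11 rats. The summed level of 5 oligodendrocyte markers ran from 85.3 to 293 array medians in heroin rats and from 92.3 to 273 in saline rats, and the part of tissue makeup in the results was not tested.

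Of the 36 tested genes, 30 were higher and 6 lower in heroin rats, with a median difference of 0.23, beside 0.18 for all tested probes. At an unadjusted limma p under 0.05, 11 genes (30.6%) were higher, beside 15.7% of all tested probes, and 1 (2.78%) was lower, beside 2.83%. The 11 were Gnai1, Gnai3, Adcy2, Adcy3, Prkar1a, Prkar2b, Pde4d, Pde7a, Pde4dip, Pde6d and Pde9a, and the lower gene was Pde6h. The shares of all probes make no allowance for signal, while each member gene stands by its brightest tested probe. Over 20 bins of signal, the share at p under 0.05 in either direction was 13.5% in the dimmest. It was 21.3% in the brightest and 29.0% in the bin next to it. Past the pair of thresholds in the study's methods, which ask for p under 0.02 unadjusted together with at least a 1.4-fold change, were Gnai1, higher in heroin rats, and Pde6h, lower. That is 2 of 36, beside 2.72% of all tested probes, 1.79% higher and 0.927% lower. These calls use the limma p. With the methods' t-test, which allows unequal variances, no member passed both thresholds (background 1.21%), and with the normexp background correction none did either (background 0.493%). No member had an adjusted p under 0.05 over all tested probes (limma, Benjamini-Hochberg), nor did any other probe (background 0%), and the smallest adjusted p was 0.263.

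These counts depended on the scaling and on single rats. After quantile normalization 19 member genes were higher and 17 lower, with a median difference of 0.04. Gnai1 and Adcy1 were then higher at p under 0.05 (background 4.03%) and Pde6h was lower (background 3.68%). Compared with probes of like signal, 19 of the 36 lay above the median of their brightness bin. The number at p under 0.05 was 4 without saline replicate 3 (background 9.60%), 5 without saline replicate 6 (background 10.6%) and 7 without saline replicate 2 (background 9.26%). Without saline replicate 5 it was 16 of 36, beside 34.4% of all tested probes. Past both thresholds there was then Gnai1, Gnai3, Prkacb, Prkar2b, Pde7a and Pde6h, 6 of 36 beside 9.21%. None passed both without saline replicate 2 (background 1.34%) or saline replicate 3 (background 1.54%). A single gene, Gnai1, did without heroin replicate 3 (background 1.86%), heroin replicate 4 (2.63%) or saline replicate 6 (2.07%).

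**Figure D1:**
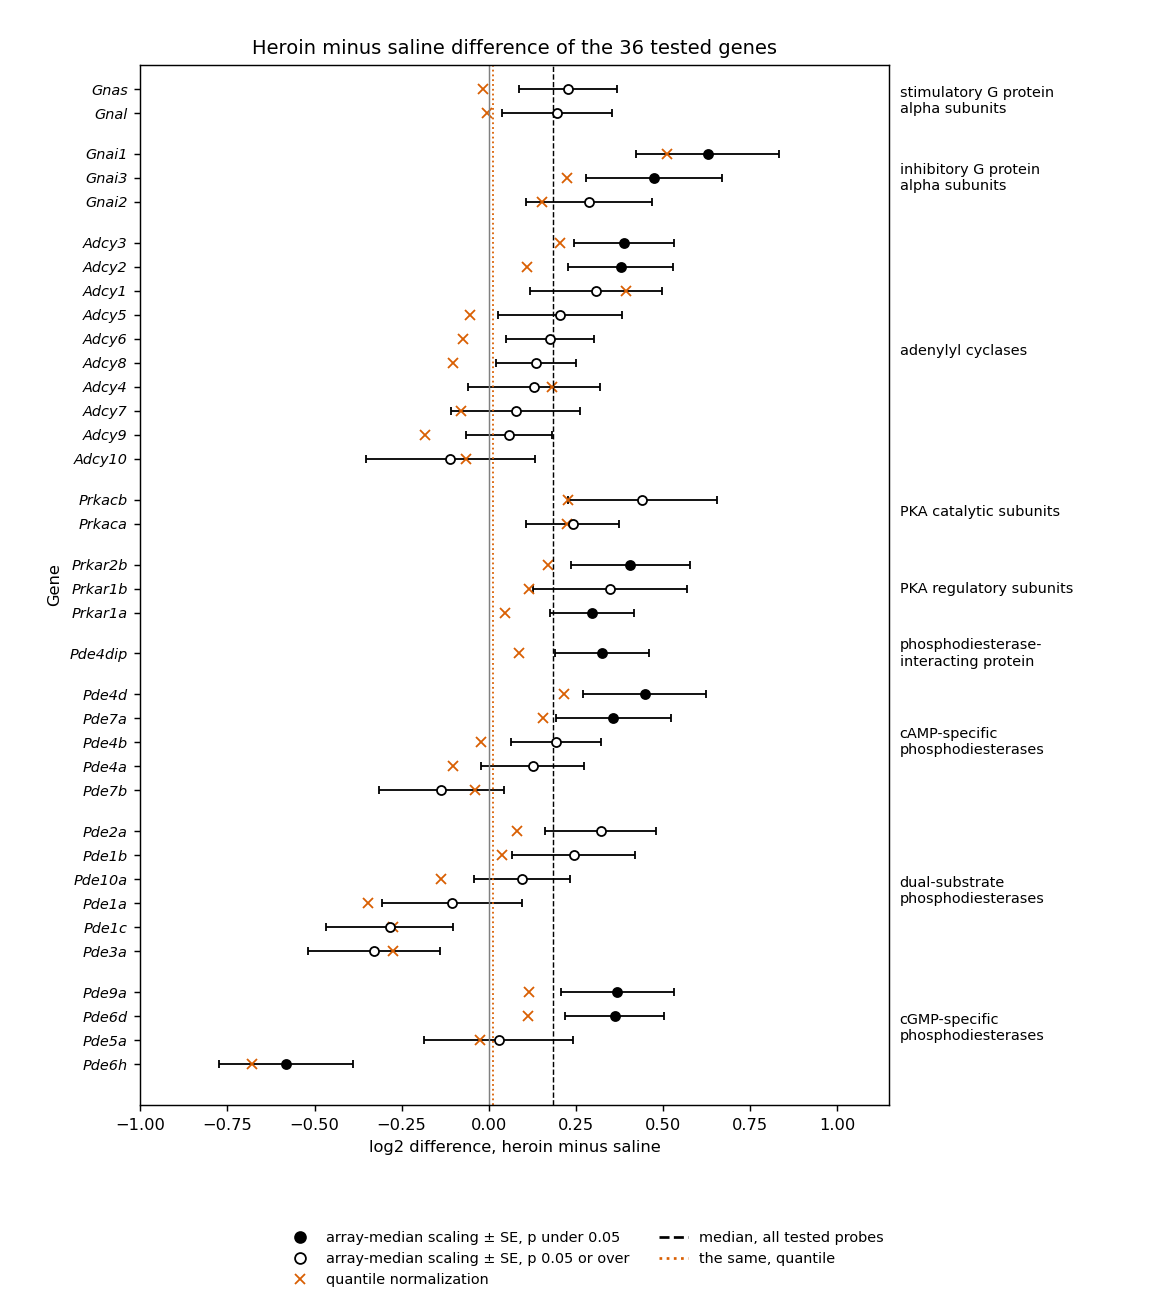
Difference between heroin and saline rats on the log2 scale for the 36 tested genes, by role. Circles with bars are the difference ± its standard error (6 heroin and 5 saline rats), filled where the unadjusted p is under 0.05, crosses are the difference after quantile normalization, and vertical lines mark the medians of all tested probes. The circles lie on both sides of the dashed line at 0.18, and the crosses lie on both sides of 0, with Gnai1 at 0.51 and Pde6h at -0.68.

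In no tested gene did all heroin rats lie on one side of all saline rats (0 of 36, beside 1.66% of all tested probes higher and 0.129% lower without overlap). In 8 genes, saline replicate 5 was the only saline rat that reached the heroin rats, these being Gnai1, Adcy2, Prkacb, Prkar1a, Prkar2b, Pde4dip, Pde6d and Pde7a. That rat was left out here after its values were seen, and 11.5% of all tested probes then had every heroin rat above every saline rat.

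The inhibitory alpha subunits, which carry the signal of opioid receptors to adenylyl cyclase, had a median difference of 0.47, or 0.22 after quantile normalization, and all 3 were higher in heroin rats under both scalings. The Gnai1 level in heroin rats was 2.66 at the lowest, 3.05 at the median and 3.47 at the highest. In saline replicates 2 to 6 it was 1.48, 1.44, 2.04, 3.72 and 1.86. Saline rats 2, 3, 4 and 6 lay below every heroin rat, and saline replicate 5 lay above them all. The heroin mean was 3.06 ± 0.256 array medians (SD, n = 6) and the saline mean 2.11 ± 0.937 (SD, n = 5). The difference was 0.63 (standard error 0.21), or 1.55-fold, with an exact permutation p of 0.0325 (two-sided) and a limma p of 0.00806. Scaled by quantiles, Gnai1 differed by 0.51 (exact permutation p = 0.0390). Without saline replicate 5 it differed by 0.86. The variation among saline rats was larger than among heroin rats, and the methods' t-test, which allows unequal variances, gave a p of 0.0631 on the same values.

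Gnai3, a widely expressed inhibitory subunit, was at 18.0, 22.8 and 29.1 array medians (lowest, median and highest heroin rat) and at 10.2, 13.5, 20.2, 22.0 and 17.1 in saline replicates 2 to 6. The heroin rats lay towards the upper end, with saline replicates 4 and 5 among them. Gnai3 differed by 0.47 (standard error 0.19, limma p = 0.0276, exact permutation p = 0.0519), and by 0.22 after quantile normalization (exact permutation p = 0.177). For Gnai2, also widely expressed, the levels were 2.29, 2.93 and 3.58 in heroin rats and 1.62, 2.44, 3.27, 2.95 and 1.99 in saline replicates 2 to 6, with most of the range shared. Its difference was 0.29 (standard error 0.18, exact permutation p = 0.177).

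**Figure D2:**
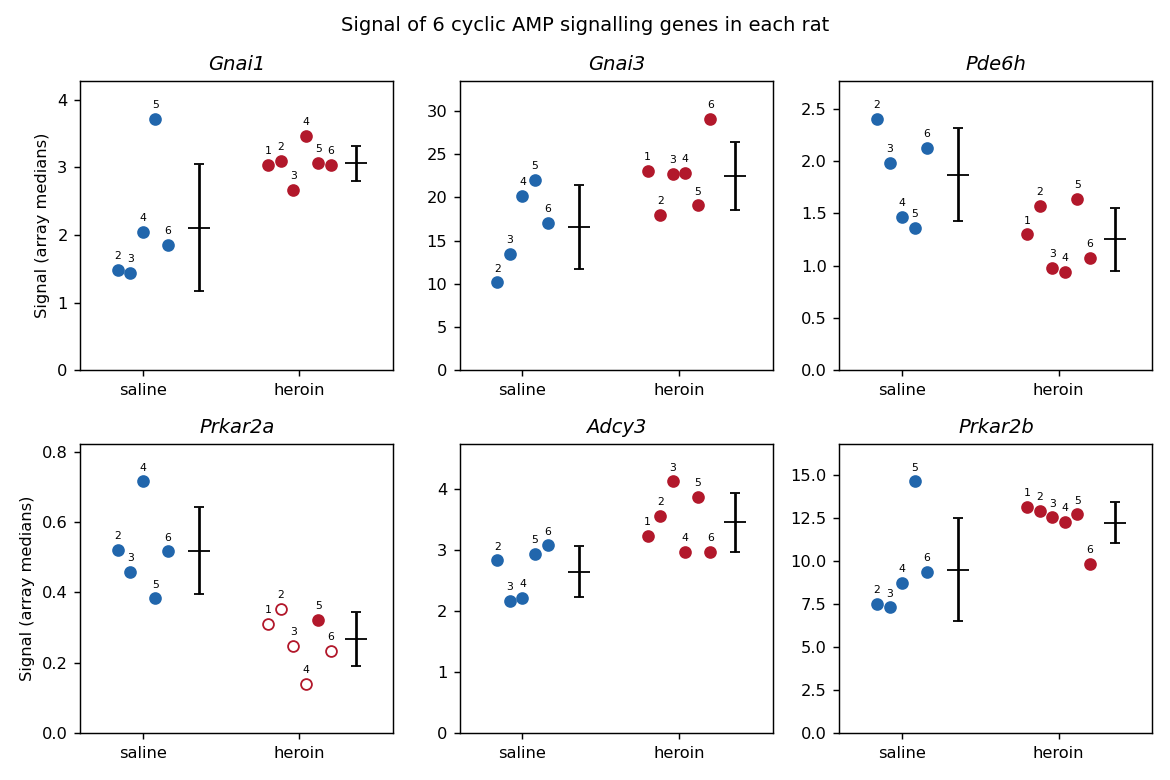
Signal of Gnai1, Gnai3, Pde6h, Prkar2a, Adcy3 and Prkar2b in each rat, in array medians, with the axis from 0. Each point is a rat with its replicate number, open where the probe was not well above background, and the bar beside each group is the mean ± SD. Saline replicate 5 lies within or above the heroin rats for Gnai1, Gnai3 and Prkar2b, and Pde6h is lower in most heroin rats. For Prkar2a, picked after its values were seen and near the limit of detection, the groups do not overlap.

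Neither stimulatory alpha subunit was at p under 0.05, and both lay below the median of probes of like signal. Gnas encodes the ubiquitous stimulatory subunit. Its levels were 37.2, 46.6 and 51.4 (lowest, median and highest) in heroin rats and 33.7, 34.1, 40.8, 52.0 and 36.5 in saline replicates 2 to 6, so that the highest rat of all was a saline rat. Gnas differed by 0.23 (standard error 0.14, exact permutation p = 0.106), and by -0.02 after quantile normalization. Gnal encodes Golf, which couples dopamine and adenosine receptors to adenylyl cyclase in the striatum. Its brightest probe differed by 0.20 and its other probes by 0.03 and -0.16, none of them at p under 0.05. Adcy5, Pde10a and Pde1b are also known from the striatum. The summed level of the 8 striatal markers on the array ran from 40.1 to 48.9 array medians in heroin rats and from 31.5 to 65.0 in saline rats.

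All 10 adenylyl cyclases were tested. Their median difference was 0.16, or -0.06 after quantile normalization, with 9 higher in heroin rats under the former and 4 under the latter. Adcy3 is a membrane cyclase known from olfactory neurons and neuronal cilia. Its levels were 2.97, 3.40 and 4.13 in heroin rats (lowest, median and highest) and 2.83, 2.17, 2.22, 2.94 and 3.08 in saline replicates 2 to 6. All heroin rats lay at or above the upper saline values, with only saline replicate 6 among them. Adcy3 differed by 0.39 (standard error 0.14, 1.31-fold, limma p = 0.0161, exact permutation p = 0.0173), and by 0.20 after quantile normalization (exact permutation p = 0.223).

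Adcy2 is a cyclase abundant in brain that calcium does not stimulate. Its spot on the array of heroin replicate 5 had been marked by the software and was left out, so the value rests on 5 heroin rats, with 228, 255 and 362 array medians as lowest, median and highest. The saline rats 2 to 6 were at 193, 194, 227, 244 and 184. Saline replicate 5 was again the highest of its group. Adcy2 differed by 0.38 (standard error 0.15), at an unadjusted limma p under 0.05 (adjusted p = 0.263), and by 0.11 after quantile normalization. With the marked spot kept it differed by 0.33.

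The other 8 cyclases differed by -0.11 (Adcy10, the soluble cyclase) to 0.31 (Adcy1), none at p under 0.05, and the tested probes of Adcy9 by 0.06 and 0.15. Adcy1 and Adcy8 are the cyclases that calcium and calmodulin stimulate. The levels of Adcy1 were 0.522, 0.694 and 0.947 in heroin rats and 0.639, 0.735, 0.660, 0.381 and 0.507 in saline replicates 2 to 6. This dim probe overlapped between the groups over much of its range, and here saline replicate 5 was the lowest rat. It differed by 0.31 (exact permutation p = 0.184), but by 0.39 after quantile normalization, where it alone of the members came to a limma p under 0.05 that it had not had before (exact permutation p = 0.0779). Adcy8 differed by 0.14 (exact permutation p = 0.0974), and by -0.10 after quantile normalization.

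All 5 tested subunits of protein kinase A had higher means in heroin rats, while Prkar2a, a regulatory subunit near the limit of detection, had a lower one. The catalytic subunits Prkaca and Prkacb had a median difference of 0.34, or 0.23 after quantile normalization, with neither at p under 0.05. Prkacb, the beta catalytic subunit that is abundant in neurons, was at 5.69, 6.43 and 7.89 in heroin rats and at 3.46, 4.39, 3.83, 9.39 and 4.80 in saline replicates 2 to 6. Its heroin rats lay close together, while saline replicate 5 exceeded all of them and the other saline rats lay below. The difference was 0.44 (standard error 0.21, limma p = 0.0575, exact permutation p = 0.108).

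The 4 Prkacb probes differed in what they showed, and the leading bases of the 3 with a position in rn3 are given for that reason, in the order of their signal.
Prkacb, chr2:244933150-244933209: agctttcgatgtaagatgtaaggtgtgtta
Prkacb, chr2:244934557-244934616: gatcaatctccaaggatctaagatcatttt
Prkacb, chr2:244961483-244961542: ggaagagtcatgctggtaaagcataaagcc
The brightest, named at the top, had marked spots on 8 of 11 arrays and was not tested. With marked spots kept, its levels were 151, 157 and 177 in heroin rats (lowest, median and highest) and 101, 105, 124, 169.6 and 121 in saline replicates 2 to 6. Saline replicate 5 alone reached the heroin rats, and the difference was 0.38 (standard error 0.14, adjusted p = 0.263, exact permutation p = 0.0195). The second probe stands for the gene with its difference of 0.44. The last differed by -0.13, and a further tested probe without a position by 0.07.

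The regulatory subunits tested had a median difference of 0.35, or 0.12 after quantile normalization. Prkar1a, the widely expressed RI alpha subunit, was at 76.2, 87.3 and 99.2 in heroin rats and at 70.2, 64.4, 66.6, 83.8 and 67.5 in saline replicates 2 to 6. Saline replicate 5 alone reached the heroin rats. Prkar1a differed by 0.30 (standard error 0.12, limma p = 0.0273, exact permutation p = 0.0108), and its other tested probe by 0.40. After quantile normalization the difference was 0.05 (exact permutation p = 0.582). Prkar2b, the RII beta subunit that predominates in brain, was at 9.84, 12.6 and 13.1 in heroin rats and at 7.50, 7.30, 8.71, 14.6 and 9.37 in saline replicates 2 to 6. Heroin replicate 6 lay well below the other heroin rats and saline replicate 5 above every rat. Prkar2b differed by 0.41 (standard error 0.17, limma p = 0.0308, exact permutation p = 0.0519), its other probe by 0.27, and after quantile normalization by 0.17 (exact permutation p = 0.247). Prkar1b, the neuronal RI beta subunit, differed by 0.35 (exact permutation p = 0.214).

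Prkar2a, the RII alpha subunit, was outside the tests because its probe was well above background in 5 of 5 saline rats but in 1 of 6 heroin rats. It is described here after its values were seen. The heroin levels were 0.140, 0.279 and 0.353 (lowest, median and highest) and the saline levels 0.520, 0.459, 0.716, 0.383 and 0.517 in replicates 2 to 6. Every heroin rat lay below every saline rat. The means were 0.268 ± 0.0771 array medians (SD, n = 6) and 0.519 ± 0.123 (SD, n = 5). Since the probe was chosen for these values and was measured above background mainly in the group where it is high, no test, difference or fold is given.

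**Figure D3:**
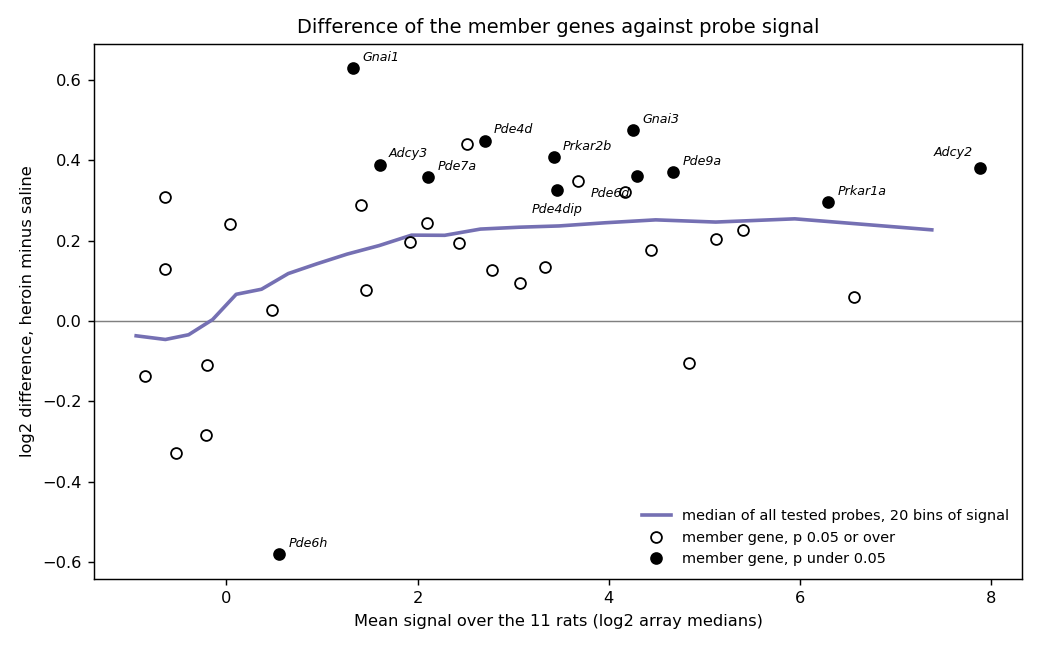
Difference between heroin and saline rats on the log2 scale against the mean log2 signal of the 36 tested genes. The line joins the medians of all tested probes in 20 bins of signal, and filled points are genes with an unadjusted p under 0.05. The line runs from about -0.05 for dim probes to 0.25 for bright ones, Gnai1 lies above it at 0.63 and Pde6h below it at -0.58.

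Phosphodiesterases were divided by substrate, as read from the gene name. The cyclic AMP-specific ones had a median difference of 0.19 over 5 tested genes, or -0.02 after quantile normalization. Pde4d, of the family that rolipram inhibits, was at 4.70, 7.71 and 10.4 in heroin rats and at 4.97, 5.93, 6.24, 5.64 and 4.83 in saline replicates 2 to 6. The heroin rats spread widely and included both the lowest and the highest rat. Pde4d differed by 0.45 (standard error 0.18, limma p = 0.0228, exact permutation p = 0.0455), its other tested probe by 0.26, and after quantile normalization by 0.22 (exact permutation p = 0.210). Pde7a was at 4.24, 5.05 and 5.16 in heroin rats and at 2.67, 3.83, 4.08, 5.60 and 3.29 in saline replicates 2 to 6. Again only saline replicate 5 reached the heroin rats. It differed by 0.36 (standard error 0.16, limma p = 0.0467, exact permutation p = 0.0628), and by 0.16 after quantile normalization (exact permutation p = 0.227). Pde4a, Pde4b and Pde7b differed by 0.13, 0.19 and -0.14, none at p under 0.05. Pde8a, detected in 1 of 11 rats, and Pde8b, detected in 4 rats of each group, were not tested.

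Pde4dip, or myomegalin, is no phosphodiesterase but a scaffold protein that binds one, and it is a member through its name. Its levels were 10.4, 11.4 and 15.6 in heroin rats and 8.72, 9.72, 9.64, 11.2 and 9.38 in saline replicates 2 to 6. Saline replicate 5 alone lay among the heroin rats. The difference was 0.33 (standard error 0.14, limma p = 0.0292, exact permutation p = 0.0173), but 0.02 for the other tested probe, and 0.09 after quantile normalization (exact permutation p = 0.392).

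The 6 tested phosphodiesterases that break down both cyclic nucleotides had a median difference of -0.01, or -0.21 after quantile normalization, the lowest median of the subgroups under both scalings, and none was at p under 0.05. Pde2a, which cyclic GMP stimulates, was at 12.8, 20.5 and 25.8 in heroin rats and at 17.4, 14.7, 15.4, 16.7 and 15.6 in saline replicates 2 to 6. The saline rats lay close together, and heroin replicate 6 lay below all of them. Pde2a differed by 0.32 (standard error 0.16, limma p = 0.0621, exact permutation p = 0.0801), and by 0.08 after quantile normalization. Pde1a, Pde1c and Pde3a differed by -0.10, -0.28 and -0.33. Pde3a, which cyclic GMP inhibits, had an exact permutation p of 0.147. Pde10a, known for its high level in striatum, differed by 0.09, or -0.14 after quantile normalization. Pde3b, detected in 6 heroin and 4 saline rats, and Pde11a, detected in 1 of each group, were not tested.

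The cyclic GMP-specific phosphodiesterases were included by their name, and they gave the single gene that was lower in heroin rats at p under 0.05. Of the 4 tested, Pde6h and Pde6d encode an inhibitory subunit and a binding protein. The medians of this subgroup are therefore not those of enzymes alone. Pde6h encodes the small inhibitory subunit of the cone photoreceptor phosphodiesterase. Its levels were 0.941, 1.19 and 1.64 in heroin rats (lowest, median and highest) and 2.41, 1.99, 1.47, 1.36 and 2.13 in saline replicates 2 to 6. Saline replicates 2, 3 and 6 lay above every heroin rat, and saline replicates 4 and 5 lay among them. The means were 1.25 ± 0.301 array medians (SD, n = 6) and 1.87 ± 0.444 (SD, n = 5). The difference was -0.58 (standard error 0.19, limma p = 0.00881, exact permutation p = 0.0325), that is, saline rats were 1.50-fold higher. The methods' t-test gave a p of 0.0239 on the same values, which is not under its threshold. The difference was -0.68 after quantile normalization (exact permutation p = 0.0303), and lay within -0.69 to -0.48 when single rats were omitted.

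Of the photoreceptor markers, Sag was detected in none of the 11 rats and Rcvrn in 2 saline rats. The catalytic photoreceptor subunits Pde6a and Pde6c were detected in no rat and Pde6b in 2 heroin and 3 saline rats.

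Pde6d, whose product binds prenylated proteins, was at 18.7, 21.8 and 26.9 in heroin rats and at 16.9, 14.6, 17.0, 22.9 and 15.3 in saline replicates 2 to 6. It differed by 0.36 (standard error 0.14, limma p = 0.0231, exact permutation p = 0.0281), and by 0.11 after quantile normalization (exact permutation p = 0.214). Pde9a, a cyclic GMP phosphodiesterase of brain, was at 21.8, 28.9 and 34.7 in heroin rats and at 20.9, 19.3, 24.7, 30.4 and 17.7 in saline replicates 2 to 6. Saline replicate 5 lay among the heroin rats in both genes, and saline replicate 4 in Pde9a only. Pde9a differed by 0.37 (standard error 0.16, limma p = 0.0373, exact permutation p = 0.0541), and by 0.12 after quantile normalization (exact permutation p = 0.385). Pde5a differed by 0.03 (exact permutation p = 0.907).

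The rats with the same replicate number, apart from heroin replicate 1, had the same scan time and were taken to share a slide. In this way 5 slides held a rat of each group. Gnai1 was higher in the heroin rat on 4 of 5 slides, with differences of 1.06, 0.89, 0.76 and 0.71 on the slides of replicates 2, 3, 4 and 6 and -0.28 on that of replicates 5. Pde6h was lower on the same 4 slides and differed by 0.27 on the slide of replicates 5. Pde4dip was higher on 5 of 5, by only 0.02 on the slide of replicates 5, and its other tested probe was higher on 3 of 5. Prkaca, not at p under 0.05, was also higher on 5 of 5. The share of all probes higher on every slide is not given here. With the slide as a block over these 10 rats, Gnai1 (0.63), Pde6h (-0.60), Gnai3 (0.46), Adcy3 (0.41), Adcy2 (0.46) and Pde4d (0.42) were at an unadjusted limma p under 0.05. Prkar1a, Prkar2b, Pde4dip, Pde7a, Pde6d and Pde9a were not, with differences of 0.29, 0.39, 0.29, 0.35, 0.34 and 0.34. That left 6 of 36 genes in place of 12, beside 10.6% of all tested probes. This fit lacks heroin replicate 1, and without that rat alone 8 genes were at p under 0.05, beside 12.8%. With the slide as a random block over all 11 rats it was 10 genes, beside 16.7%, with Adcy2, which has a missing value and was not fitted, and Pde7a no longer among them.

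**Figure D4:**
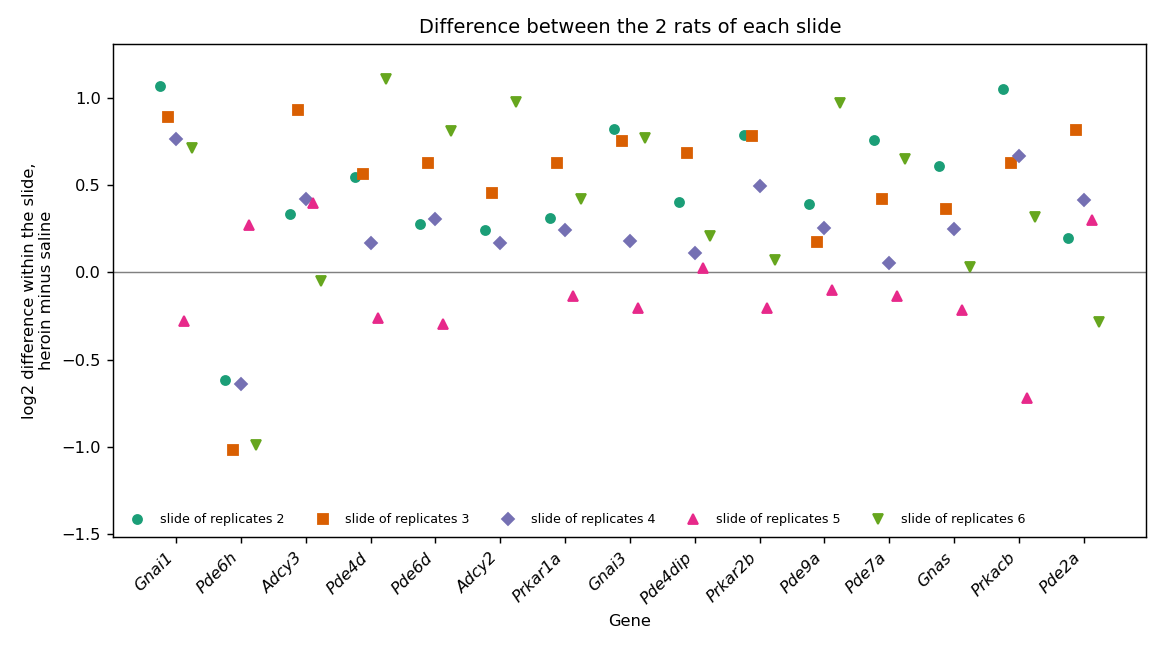
Difference on the log2 scale between the heroin and the saline rat of the same slide, for 15 genes described by rat. Each symbol is 1 of 5 slides, named by the replicate number of its rats. The slide of replicates 5 stands below 0 for Gnai1 at -0.28 and above 0 for Pde6h at 0.27, against the other 4 slides.

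The wider pathway was read from a list of 36 genes that act with the members, such as anchoring proteins of protein kinase A (Akap), its inhibitors (Pkia, Pkib, Pkig), cyclic AMP-regulated exchange factors and transcription factors. Of the 30 tested, 7 were higher in heroin rats at p under 0.05 and 0 were lower. The 7 stand against the 15.7% of all probes given above, a share that makes no allowance for signal. They were Akap1, Akap6, Akap7, Pkig, Crem, Ric8a and Rap1b. Ric8a, a chaperone of G protein alpha subunits, differed by 0.39 (exact permutation p = 0.0216), and Pkig, an inhibitor of the catalytic subunit, by 0.37 (exact permutation p = 0.0195). Crem, a transcription factor that cyclic AMP regulates, differed by 0.43 (exact permutation p = 0.0736). The median of the list was 0.24, or 0.05 after quantile normalization, where 0 of the 30 were at p under 0.05 by limma. The transcription factor Creb1 differed by -0.13 (exact permutation p = 0.171).

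Promoter windows of 300 bases were taken from RefSeq (build GRCr8) for 31 of the 44 genes, 47 windows in all. The full cyclic AMP response element, TGACGTCA, was in 0 of 47, beside 1.83% of all RefSeq windows. A window with the shorter form of the element on either strand, TGACG or CGTCA, was found for Gnas, Adcy7, Adcy9, Prkaca, Prkacb, Pde4a, Pde4d, Pde8a and Pde10a. That is 11 of 47 windows (23.4%), beside 21.2% of all windows. The full element contains both short forms.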

How the data were processed

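The authors deposited the scanner output of each array, in which every spot has a background-corrected signal intensity (Feature Extraction, 9.5.1.1), not scaled between arrays. They also deposited relative values for 23670 probes as a linear ratio, used after log2 as an alternative. From the intensities, control spots and 99 to 231 marked spots per array were left out, values under 5 were set to 5, log2 was taken, spots of a probe were averaged and the array median (50th percentile) was subtracted. The floor and the percentile are those of the methods, whose further scaling of each gene was not done. Probes well above background (at least 0.5 of spots) on all 11 arrays, with at least 2 usable values per group, were fitted with limma (3.58.1, R 4.3.3), two-sided, adjusted by Benjamini-Hochberg over 25555 probes. The exact permutation test used the 462 divisions of the rats. The fit was tested on simulated data. Genes described by rat were those at p under 0.05 (up to 12) and the lowest p of every other subgroup. Gnai2, Adcy1 and Prkar2a were added after their values were seen. Members and lists were chosen with earlier results of these data known, and Pde4dip was set apart after the files were seen.

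Lists of markers for striatum, excitatory neurons, interneurons, oligodendrocytes, astrocytes, microglia, endothelium, blood, choroid plexus and photoreceptors were measured in the same way, and values of some single markers are not reported here. Alternatives were other scalings, background corrections, filters, tests, weights and blocks, the mean of a gene's probes, and each rat left out in turn.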

Additional observations from a re-analysis of the deposited data

Results flagged for a closer look

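In 2 of 32 groups of 5 or 6 rats tested, over the genes described by rat, the extreme rat lay far from the nearest of the others, where chance gives about 1 group in 20. Heroin replicate 6 was the lowest heroin rat for Prkar2b, at 9.84 array medians with the nearest heroin rat at 12.3. It was also the lowest heroin rat for Pde2a, at 12.8 with the nearest at 19.9. That array had the lowest median signal of the 11, 42.7, and it was the lowest of the heroin rats for 29.3% of all tested probes and the highest for 29.8%. Without it, Pde2a came to p under 0.05 and Prkar2b stayed there (background 21.2%).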

How the results depend on the processing

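Scaling moved most counts and medians. Scaling to the 75th percentile put 3 member genes at p under 0.05 (background 9.55%), Gnai1, Pde6h and Pde3a, of which Pde3a was newly called and lower. That scaling left 1 gene, Pde6h, past both thresholds (3.05%), with a median of 0.016 over the members. Its subgroup medians were -0.062 for adenylyl cyclases, 0.12 and 0.13 for catalytic and regulatory subunits of protein kinase A, and -0.024, -0.22 and -0.023 for the cyclic AMP-specific, dual-substrate and cyclic GMP-specific phosphodiesterases, and 3 pathway partners were at p under 0.05. Quantile normalization put 3 member genes, with Adcy1 newly among them, and 0 partners at p under 0.05 (background 7.71%). Its medians were 0.042 over the members, -0.060 for adenylyl cyclases, 0.12 for regulatory subunits, and -0.023 and -0.21 for cyclic AMP-specific and dual-substrate phosphodiesterases, and Gnas turned to -0.017. Scaling to the detected probes put 3 member genes, Gnai1, Pde6h and the newly called Pde3a, and 2 partners at p under 0.05 (background 9.08%). This scaling left 1 gene, Pde6h, past both thresholds (2.64%). Its medians were 0.043 over the members, -0.034 for adenylyl cyclases, and 0.0032 and 0.0044 for cyclic AMP-specific and cyclic GMP-specific phosphodiesterases. The normexp correction left 0 genes past both thresholds (background 0.493%). Without a filter the cyclic GMP-specific median was -0.038, with 3 partners at p under 0.05 (background 13.8%). The methods' t-test put 7 member genes and 4 partners at p under 0.05 (background 16.1%) and 0 past both thresholds (1.21%), and 0 members after Benjamini-Hochberg.

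Array weights, which ranged from 0.26 for heroin replicate 6 to 3.53 for heroin replicate 1, gave 22 of 45 member probes an adjusted p under 0.05, beside 31.9% of all tested probes. With them 22 member genes and 18 partners were at p under 0.05 (background 48.2%), 7 were past both thresholds (9.57%) and the regulatory subunits had a median of 0.60. The causes were not tested. With each rat left out in turn, 4 to 16 member genes were at p under 0.05 (background 9.26% to 34.4%). Past both thresholds were 0 to 6 (1.34% to 9.21%). From 1 to 13 partners were at p under 0.05, the fewest without saline replicate 3 (background 9.60%) and the most without saline replicate 5 (34.4%). The partner count was 2 without saline replicate 2 (9.26%) or 6 (10.6%) and 3 without heroin replicate 1 (12.8%) or 3 (11.9%).

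With the replicate number as a block over replicates 2 to 6, 6 member genes were at p under 0.05 (background 10.6%). The deviations of same-numbered rats had correlations of 0.38, -0.13, 0.35, 0.02 and -0.24. These rats also shared a slide, so the slide and any other pairing of them cannot be told apart. Pde6h kept its direction and p under 0.05 in all 15 other settings and without each rat. Gnai1 did so in all but the methods' t-test (0.0631). Prkar2a entered a fit only with a looser filter, chosen after the data were seen, or with none, and no test or difference is given for it. The other 10 genes at p under 0.05 kept it in 2 (Pde7a) to 9 (Adcy3, Pde4d and Pde6d) of the 11 fits without a rat.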

Other observations

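Lists of markers that the report does not print gave these medians of the log2 difference over their tested genes, with the value after quantile normalization in brackets. The 2 excitatory markers had 0.40 [0.21], 5 interneuron markers 0.21 [-0.03], 5 oligodendrocyte markers -0.01 [-0.25] and 5 astrocyte markers 0.21 [-0.03]. The 4 microglial markers had 0.20 [-0.04], 3 endothelial markers 0.10 [-0.15], 2 blood markers 0.11 [-0.10], 2 choroid plexus markers -0.10 [-0.19] and 6 striatal markers -0.02 [-0.19]. In Vip, a neuropeptide of interneurons, and Folr1, a marker of choroid plexus, the groups did not overlap. Both were picked from all these lists for that reason, with no test. Of all tested probes, 1.66% were higher and 0.129% lower in heroin rats without overlap. Vip differed by 0.49 [0.25] and Folr1 by -0.26 [-0.31].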
